A study of Mus musculus with 6 samples.

Results

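The nuclear genes for mitochondrial ribosomal proteins were compared between WT and SIRT1 KO mouse embryonic stem cells (mESCs). They were taken as the genes of the deposited expression table whose symbol starts with Mrpl or Mrps followed by a number, without symbols that mark a pseudogene, which gave 78 of 54352 genes and left out 5 pseudogenes. Among the 78, 51 encode proteins of the large subunit and 26 of the small subunit. The remaining gene, Mrps36, carries the symbol but encodes a component of the 2-oxoglutarate dehydrogenase complex (KGD4), and it was kept because the choice was made by symbol.

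RNA was sequenced from 3 WT and 3 SIRT1 KO libraries. Both genotypes were male mESCs of the 129Sv/J background in ESGRO medium, a serum-free medium for embryonic stem cells, and the SIRT1 KO cells of the study came from the R1 line by gene targeting. Each genotype is thus read as 1 cell line, so that a change caused by the loss of SIRT1 and a difference that arose between the lines cannot be told apart. The labels do not say whether the 3 libraries of a genotype came from separate cultures, and the p-values measure the spread between these libraries, which may be technical.

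Mitochondria hold their own ribosome, the mitoribosome, which makes the few proteins encoded by mitochondrial DNA, all of them parts of the respiratory chain and ATP synthase. Its ribosomal RNAs are transcribed from mitochondrial DNA, while all of its proteins are encoded in the nucleus, made in the cytosol and imported. Some of these proteins have homologs in bacterial ribosomes and others are found only in mitochondria.

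Levels are given as deposited, as log2 normalized expression, and a difference of 1 is read as a 2-fold difference. The transformation behind the values is not known, and some genes at the lowest values barely varied between libraries. Mrpl53, with a WT mean of 3.67, had an SD of 0.01, against a median WT SD of 0.07 over all tested genes. Changes of genes at such low values may therefore be understated. A gene was called higher or lower in SIRT1 KO mESCs at an adjusted p under 0.01 from limma, a linear model with a shared estimate of the spread, with Benjamini-Hochberg adjustment over 26571 genes whose mean over the libraries reached 10 after taking the values back from log2. All 78 members passed that filter. Sirt1, the targeted gene, measured 15.52, 15.54 and 15.49 in the WT libraries and 13.71, 13.72 and 13.79 in the SIRT1 KO libraries, a decrease with a log2 fold change of -1.78 (limma adjusted p = 1.16e-07). Markers of embryonic stem cells were high in every library, with means between 16.6 and 18.5, and 1 of 8 was called lower. Of 7 markers of fibroblast feeder cells, 4 passed the filter, 1 was called higher and 1 lower, and their summed level was 11.97 to 12.11 in WT and 11.98 to 12.17 in SIRT1 KO libraries. The summed level of 4 trophoblast markers was 13.11 to 13.23 in WT and 13.58 to 13.71 in SIRT1 KO libraries, with 1 called higher, and that of 5 primitive endoderm markers was 10.72 to 10.97 and 11.09 to 11.29, with 1 called higher and 2 lower. Neither overlapped between the genotypes, and their part in the results was not tested. The sum of 4 neural markers overlapped, at 15.36 to 15.61 in WT and 15.53 to 15.57 in SIRT1 KO libraries, with 1 called lower.

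WT replicate 2 stood apart from the other libraries for these genes. It had the lowest of the WT values for 76 of 78 members, while it was the lowest WT library for 41.4% of all tested genes. Its members lay at a median of -0.13 from their WT mean, against 0.04 for WT replicate 1 and 0.09 for WT replicate 3. The SIRT1 KO libraries lay closer together, at medians of -0.04, -0.00 and 0.04. The cytosolic ribosomal proteins showed the same library at the bottom for 84 of 85 genes, with a median deviation of -0.16. Since this library lowers the WT mean of nearly every member, the counts of called genes for the members, the subunits and the related lists are given with and without it.

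**Figure D1:**
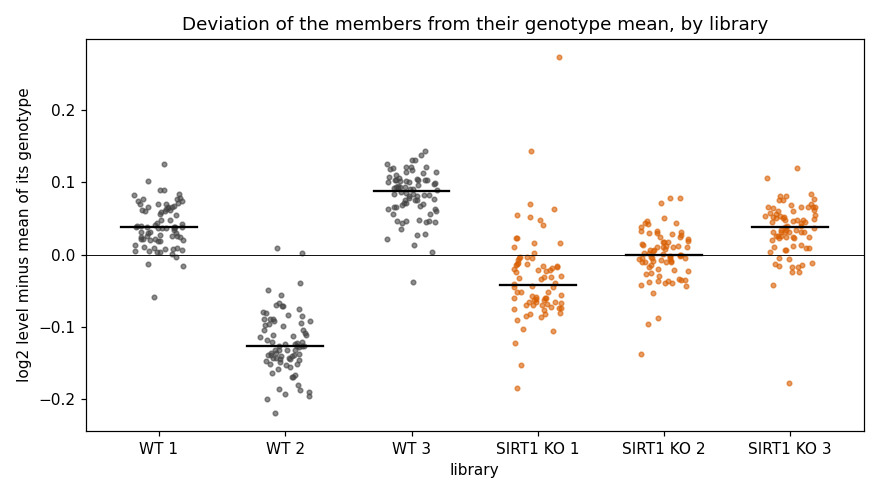
Deviation of each of the 78 members from the mean of its genotype (y axis, log2 level), by library (x axis), with a point for each gene and a bar at the median. The members of WT replicate 2 lie at a median of -0.13, below every other library, and those of WT replicate 3 lie at 0.09.

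Most members differed little between the genotypes. The log2 fold change, SIRT1 KO minus WT, lay within 0.2 of zero for 56 of 78 members and within 0.1 for 37, and no member changed by more than 1. Its median over the members was -0.02, against -0.01 over all tested genes. In bulk RNA, fewer cells that express a gene and less of its RNA per cell cannot be told apart. In SIRT1 KO mESCs 3 members were called higher, which were Mrpl23, Mrpl49 and Mrpl9, and 9 were called lower, which were Mrpl19, Mrpl35, Mrpl43, Mrps14, Mrps24, Mrpl58, Mrpl38, Mrps6 and Mrps2. These 12 are 15.4% of the members, against 16.6% of all tested genes called in either direction. The 3.85% of members called higher lies under the 8.47% of all tested genes and the 12.4% of tested protein-coding genes. The 11.5% called lower lies beside 8.12% of all tested genes and 11.3% of protein-coding genes.

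Without WT replicate 2 the count of lower members rose from 9 to 22, and the count of higher members stayed at 3. The share of lower members was then 28.2%, against 10% of all tested genes called lower, and 10.5% of all tested genes were called higher. The library was set aside because of the members' own values, and leaving it out raises the WT mean of nearly all of them. It was the lowest WT library for only 41.4% of all tested genes. The difference between 28.2% and 10% is therefore partly set by that choice and is not a result about the members. The 13 members added without WT replicate 2 were Mrpl15, Mrpl20, Mrpl37, Mrpl40, Mrpl46, Mrpl51, Mrpl55, Mrps11, Mrps12, Mrps23, Mrps25, Mrps26 and Mrps34. Leaving out any other library gave 3 to 5 lower members, and Mrpl19, Mrpl35, Mrpl43 and Mrpl23 were called in every alternative run. The WT and SIRT1 KO values did not overlap for 20 members in the lower direction and 14 in the higher direction, which is 25.6% and 17.9% of the members, against 22.9% and 21.8% of all tested genes.

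**Figure D2:**
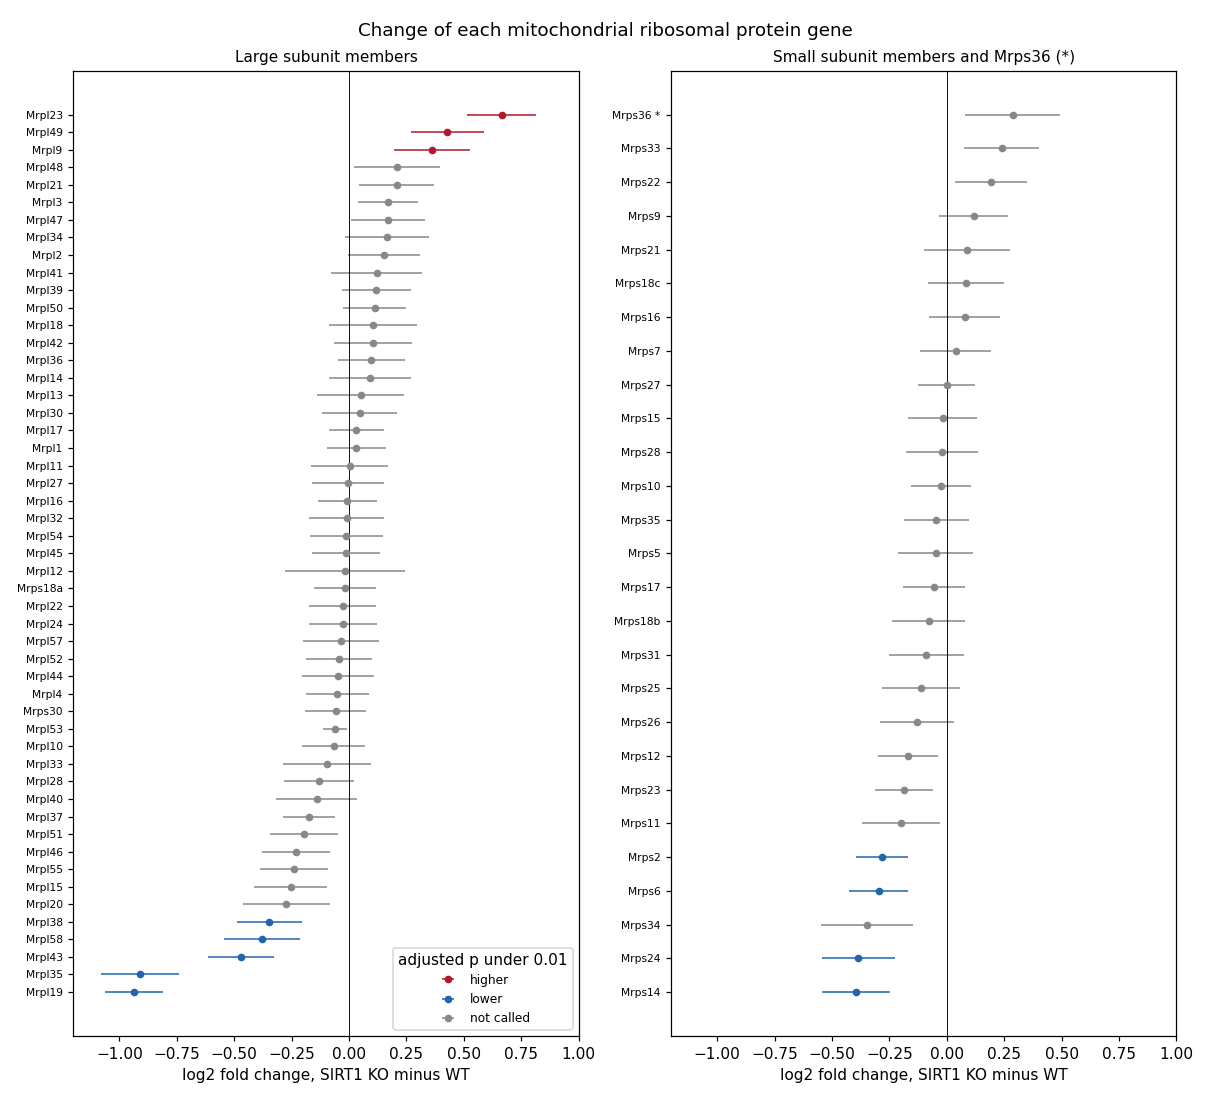
Log2 fold change of each member, SIRT1 KO minus WT (x axis), with its 95% confidence interval from limma, for the large subunit (left) and the small subunit with Mrps36 (right). Most intervals cross zero, while Mrpl19 and Mrpl35 lie near -0.9 and Mrpl23 near 0.66.

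By subunit, 3 of 51 large subunit members were called higher and 5 lower, with a median log2 fold change of -0.01, and without WT replicate 2 the same counts were 3 and 12. Of the 26 small subunit members none was called higher and 4 were called lower, with a median of -0.05, and 10 were called lower without WT replicate 2. Leaving out each library in turn gave 1 to 3 higher and 3 to 12 lower large subunit members and 0 to 10 lower small subunit members, and no small subunit member was called without WT replicate 3 or without SIRT1 KO replicate 2. Of all tested genes 8.47% were called higher and 8.12% lower, and 10.5% and 10% without WT replicate 2. Rises in the lower counts without that library are partly set by leaving it out, as for the members as a whole. The 46 members with a bacterial homolog gave 2 higher and 6 lower, and the 31 found only in mitochondria gave 1 higher and 3 lower, and without WT replicate 2 each of these groups had 11 lower. Among named places in the ribosome, none of the 5 proteins of the L7/L12 stalk, where translation factors bind, was called. One of them is Mrpl53, whose level is not a measure of its transcript because it shares most of its exonic bases with another gene, and the changes of the other 4, Mrpl10, Mrpl11, Mrpl12 and Mrpl54, ranged from -0.07 to 0.00. Of 8 proteins of the central protuberance 1 was called lower, 4 without WT replicate 2, and of 8 around the exit tunnel 1 was called higher. These counts are small, and differences between the groups of members were not tested.

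The largest decreases were those of Mrpl19 and Mrpl35, which encode bL19m and bL35m, large subunit proteins with bacterial homologs. Mrpl19 measured 14.73, 14.63 and 14.78 in the WT libraries and 13.75, 13.78 and 13.81 in the SIRT1 KO libraries. It fell by 0.93 on the log2 scale (SE 0.06, limma with Benjamini-Hochberg adjusted p = 7.85e-06), to 0.523 of its WT level. Mrpl35 measured 14.42, 14.27 and 14.45 in the WT libraries against 13.36, 13.46 and 13.59 in the SIRT1 KO libraries. It fell by 0.91 (SE 0.07, limma adjusted p = 4.03e-05), to 0.532 of its WT level. For both genes every SIRT1 KO library lay below every WT library by several times the spread within a genotype.

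Both genes are on chromosome 6, Mrpl35 on the minus strand at chr6:71812997-71826969 and Mrpl19 on the minus strand at chr6:81957851-81965958 (GRCm38), with their starts 10.14 Mb apart. Their neighbours were lower too. Of the 10 tested protein-coding genes nearest to Mrpl35, 5 on each side, 9 were called lower, with a median log2 fold change of -0.71, and around Mrpl19 6 of 10 were called lower with a median of -0.44. Reep1, 2287 bases from Mrpl35, had a log2 fold change of -1.44, Immt one of -0.89 and Kdm3a one of -0.91. Gcfc2, which overlaps Mrpl19 on the opposite strand over 36.0% of the Mrpl19 exonic bases, had a change of -0.67, and Eva1a one of -1.29. Between 70 and 74 Mb of this chromosome 26 of 37 tested protein-coding genes were called lower and 1 higher, with a median of -0.64. The 26 include Mrpl35 itself and Ptcd3. Between 50 and 70 Mb 9 of 77 were called lower with a median of -0.02. Mrpl19 lies past 74 Mb. Between 74 and 82 Mb 2 of 5 were called lower with a median of -0.08, and these 2 are Mrpl19 itself and Gcfc2, which overlaps it. Between 82 and 84 Mb 11 of 37 were called lower and 2 higher with a median of -0.11. Ptcd3, the gene for the small subunit protein mS39, lies between 70 and 74 Mb and fell by 0.64 (SE 0.06, limma adjusted p = 5.74e-05). The part of the position in the decrease of these mitoribosomal genes was not tested. Without Mrpl19 and Mrpl35, 7 of the 76 other members were called lower.

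**Figure D3:**
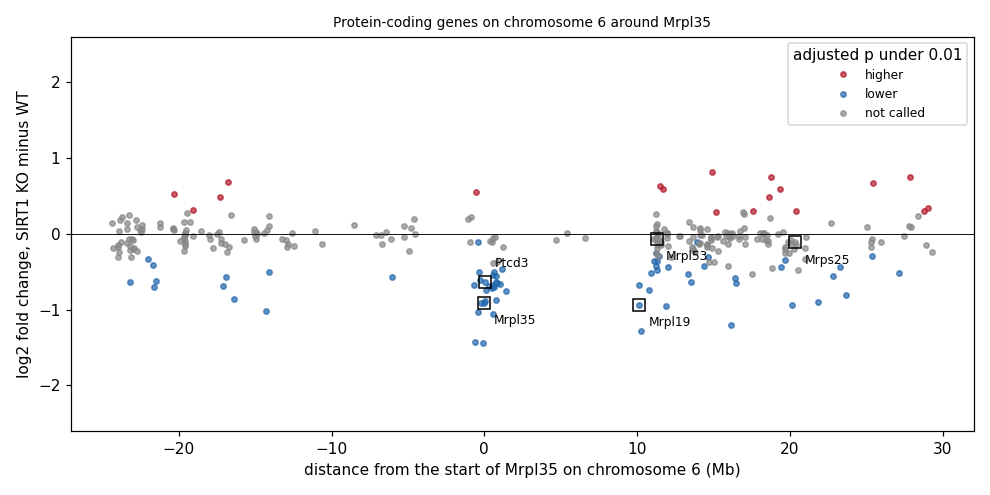
Log2 fold change, SIRT1 KO minus WT (y axis), of tested protein-coding genes on chromosome 6 against their distance from the start of Mrpl35 (x axis, Mb). Squares mark the mitoribosomal genes Mrpl35, Ptcd3, Mrpl19, Mrpl53 and Mrps25, and the genes around Mrpl35 lie together below zero, with a median of -0.64 between 70 and 74 Mb.

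Mrpl53, for the stalk protein mL53, is the next member along this chromosome, with WT libraries at 3.66, 3.68 and 3.67 and SIRT1 KO libraries at 3.59, 3.64 and 3.59. That is far under every other member, the lowest of which had a WT mean of 12.1. In the annotation, 88.0% of its exonic bases are shared on the same strand with Gm42688, whose mean was 8.0 in either genotype. Reads that fall on both genes cannot be told apart, and the level of Mrpl53 is therefore not a measure of its transcript.

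Around each of the other lower large subunit members, Mrpl43, Mrpl58 and Mrpl38, at most 1 of the 10 nearest tested protein-coding genes was called lower. Mrpl43, whose product mL43 is found only in mitochondria, measured 15.24, 15.10 and 15.31 in the WT libraries against 14.72, 14.72 and 14.80 in the SIRT1 KO libraries, with no overlap. It fell by 0.47 (SE 0.06, limma adjusted p = 0.000647). Twnk, the gene for the mitochondrial DNA helicase, starts 779 bases away on the other strand and overlaps 33.4% of the Mrpl43 exonic bases, and it had a change of 0.09 (SE 0.07, limma adjusted p = 0.397).

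Mrpl58 encodes mL62, also known as ICT1, a peptidyl-tRNA hydrolase that is built into the large subunit and releases stalled peptides. It measured 14.32, 14.16 and 14.42 in the WT libraries against 13.88, 13.89 and 14.00 in the SIRT1 KO libraries, and it fell by 0.38 (SE 0.07, limma adjusted p = 0.00475). Mrpl38, for mL38 of the central protuberance, measured 15.33, 15.17 and 15.40 in the WT libraries against 14.95, 14.95 and 14.96 in the SIRT1 KO libraries. Its decrease of 0.35 (SE 0.06, limma adjusted p = 0.00346) was larger than the spread within either genotype, and the SIRT1 KO libraries had an SD of 0.01. The call of Mrpl58 was lost in 6 of 14 alternatives and that of Mrpl38 in 5, mostly those that left out 1 library.

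The 4 small subunit members called lower fell by 0.28 to 0.40, and their calls were lost in 3 of 14 alternatives for Mrps14, 4 for Mrps24, 5 for Mrps2 and 7 for Mrps6. Mrps14, for uS14m, measured 14.77, 14.58 and 14.75 in the WT libraries against 14.24, 14.31 and 14.36 in the SIRT1 KO libraries, and it fell by 0.40 (SE 0.07, limma adjusted p = 0.00216). Cacybp, which lies 197 bases from Mrps14, was also called lower, with a change of -0.45. Of the 10 tested protein-coding genes nearest to Mrps14 it was the only 1 called, and their median log2 fold change was -0.26. Mrps24, for uS3m at the mRNA channel, measured 14.77, 14.60 and 14.86 in the WT libraries against 14.37, 14.32 and 14.38 in the SIRT1 KO libraries, and it fell by 0.39 (SE 0.07, limma adjusted p = 0.00348). On the same strand, 15.4% of the Mrps24 exonic bases are shared with Urgcp, and reads there cannot be told apart.

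Mrps6, for bS6m, measured 12.13, 12.09 and 12.05 in the WT libraries against 11.82, 11.78 and 11.79 in the SIRT1 KO libraries, a decrease of 0.30 (SE 0.06, limma adjusted p = 0.00457). In the fit with a replicate block it missed the threshold (limma adjusted p = 0.0113), and it is 1 of the members whose WT replicate 2 is not the lowest WT library. On the same strand, 19.9% of the Mrps6 exonic bases are shared with Gm49711 and 10.4% with Slc5a3, and reads there cannot be told apart. Mrps2, for uS2m, measured 15.61, 15.56 and 15.65 in the WT libraries against 15.37, 15.30 and 15.31 in the SIRT1 KO libraries, and it fell by 0.28 (SE 0.05, limma adjusted p = 0.00290). In both genes the groups did not overlap, and the differences were several times the SD within a genotype. Around Mrps2, 3 of the 10 nearest tested protein-coding genes were called lower and none higher, with a median of -0.16. Mrps34, for mS34, had a larger log2 fold change of -0.35 (SE 0.09, limma adjusted p = 0.0184) that did not pass, and 63.4% of its exonic bases overlap Mapk8ip3 on the other strand and 37.0% overlap Nme3 on the same strand.

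**Figure D4:**
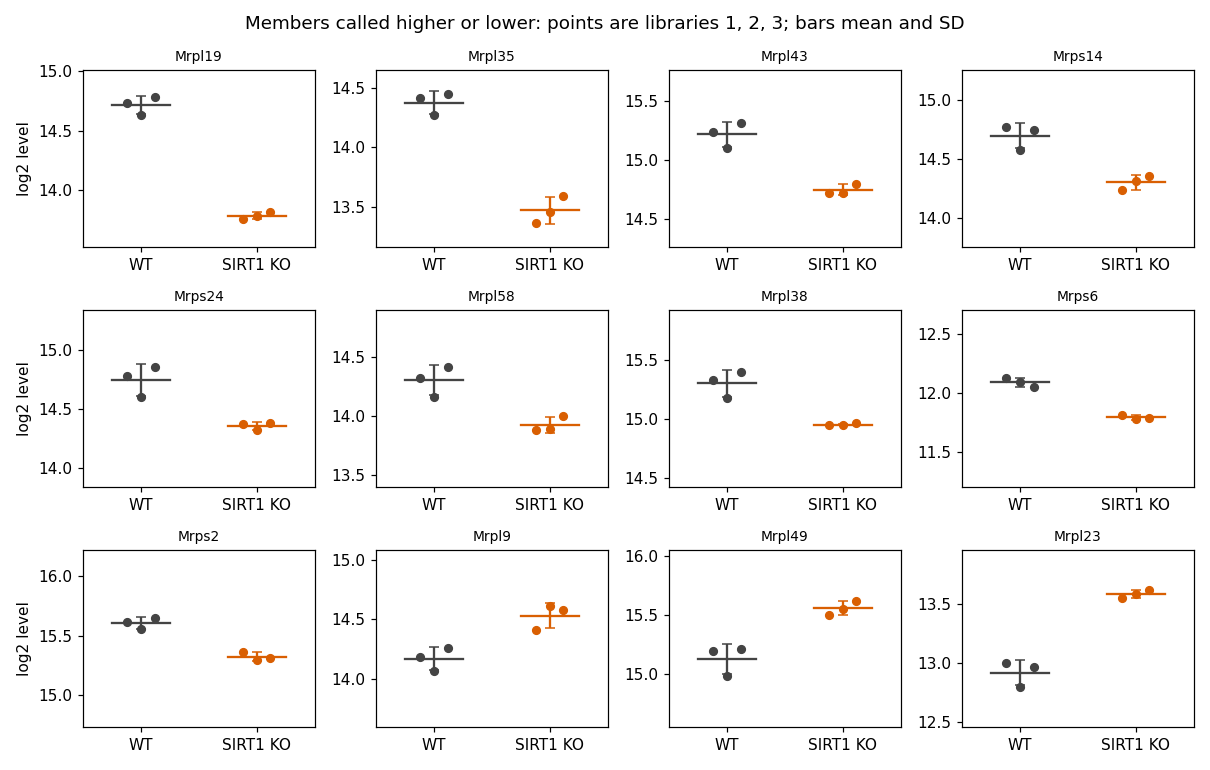
Log2 level of the 12 called members in each library, with a point for each library, a bar at the mean and whiskers of 1 SD (n = 3 per genotype), every panel with the same span on the y axis. No panel shows an overlap between WT and SIRT1 KO libraries, and WT replicate 2, the middle WT point, is the lowest WT point in every panel except that of Mrps6.

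The 3 higher members all belong to the large subunit. Mrpl23 encodes uL23m, a protein at the end of the exit tunnel. It measured 13.00, 12.80 and 12.97 in the WT libraries against 13.55, 13.59 and 13.62 in the SIRT1 KO libraries, and rose by 0.66 (SE 0.07, limma adjusted p = 0.000113), 1.58-fold. Its gene lies at chr7:142532686-142540747 on the plus strand of GRCm38. Of the 10 tested protein-coding genes nearest to it, 3 were called higher and none lower, with a median of 0.22. The part of the position in this rise was not tested. Mrpl23-ps1, a processed pseudogene on chromosome 2, measured 12.38, 12.15 and 12.35 in the WT libraries against 12.93, 12.93 and 13.01 in the SIRT1 KO libraries, a rise of 0.67 (SE 0.07, limma adjusted p = 0.000194). The first 150 coding bases of Mrpl23, from its GENCODE transcript, are printed because the pseudogene holds them letter for letter, with the start codon in capitals.
Mrpl23: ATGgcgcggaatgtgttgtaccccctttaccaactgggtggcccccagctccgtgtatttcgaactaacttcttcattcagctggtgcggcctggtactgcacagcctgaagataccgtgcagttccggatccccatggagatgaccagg
All 438 coding bases are identical in the pseudogene, and each of the 364 windows of 75 bases, the read length in the labels, occurs in both. Reads inside the coding part can therefore not be assigned to one of the copies, and the values of the pair are not independent of each other. The coding sequences of Mrpl48 and Mrps36 also have near copies, with 98.1% of bases identical in Mrpl48-ps, 99.3% in Mrps36-ps1 and 99.0% in Mrps36-ps2, and 33.5%, 45.3% and 53.9% of their windows of 75 bases occur in these copies, so that a part of their reads cannot be assigned to one copy.

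Mrpl49, for mL49, measured 15.19, 14.98 and 15.21 in the WT libraries against 15.50, 15.55 and 15.62 in the SIRT1 KO libraries, and rose by 0.43 (SE 0.07, limma adjusted p = 0.00210). It starts 59 bases from Fau, the gene for a fusion protein that yields a cytosolic ribosomal protein, which had a change of 0.29 and did not pass (limma adjusted p = 0.0256). Mrpl9, for bL9m, measured 14.18, 14.06 and 14.26 in the WT libraries against 14.41, 14.61 and 14.57 in the SIRT1 KO libraries, and rose by 0.36 (SE 0.07, limma adjusted p = 0.00584). Mrps36 had a change of 0.29 in the same direction (SE 0.09, limma adjusted p = 0.0444) and was not called. The call of Mrpl49 was lost in 2 of 14 alternatives and that of Mrpl9 in 4, without SIRT1 KO replicate 2 or 3 for both genes.

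The members with the least change show the precision of these libraries. Mrps27 had a log2 fold change of -0.00 (95% interval -0.12 to 0.12), Mrpl11 of the stalk one of 0.00 (-0.17 to 0.17) and Mrpl27 of the central protuberance one of -0.00 (-0.16 to 0.15). The median SE of a fold change over the members was 0.07, as over all tested genes. Mrpl12, for the stalk protein bL12m, had the largest spread, since SIRT1 KO replicate 1 was at 14.98 while the other SIRT1 KO libraries were at 14.61 and 14.53, and its interval of -0.28 to 0.25 leaves a change of either sign within reach. Mrpl34 lies between 45 and 100 Mb of chromosome 8, where 191 of 367 tested protein-coding genes were called higher, with a median of 0.32. It measured 14.58, 14.33 and 14.63 in the WT libraries against 14.73, 14.64 and 14.67 in the SIRT1 KO libraries, with no overlap, and its change of 0.17 (SE 0.08, limma adjusted p = 0.162) was not called.

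Per kilobase of annotated exon, the highest WT levels were those of Mrpl34 at 15.23, Mrpl2 at 15.05, Mrpl28 at 15.00 and Mrps12 at 14.97 on the log2 scale. The last 3 of these lie within 1 SD of each other (SD 0.13, 0.13 and 0.09, n = 3). Apart from Mrpl53, the lowest were Mrpl48 at 10.38, Mrpl33 at 10.52 and Mrpl23 at 10.63. The median was 13.15 over the members and 10.04 over all tested protein-coding genes. By subunit, it was 13.42 for the large and 12.99 for the small subunit in WT and 13.32 and 12.97 in SIRT1 KO mESCs. Annotated exon length counts every isoform, so that genes with long rare isoforms appear lower on this scale. For Mrpl48 and Mrpl23, reads that cannot be told from those of their pseudogenes also leave the level uncertain.

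Many of these genes stand head to head with another gene. For 33 of 78 members (42.3%) the annotated start of a protein-coding gene on the other strand lies within 1000 bases, against 10.9% of all annotated protein-coding genes. Mrpl46, for mL46 of the central protuberance, and Mrps11, for uS11m, share such a region, with changes of -0.23 and -0.20, of which neither was called. Only 3 of the 12 called members, Mrpl43, Mrpl9 and Mrpl49, have such a partner, and none of these partners was called. Fau, the partner of Mrpl49, had a change of 0.29 in the same direction, and Twnk, the partner of Mrpl43, one of 0.09. Oaz3, the partner of Mrpl9, had a WT mean of only 4.30, so its change says little. In some other pairs the changes differed. Mrpl13 had a change of 0.05 while its partner Mtbp rose by 0.55, and Mrps34 had -0.35 while its partner Eme2 rose by 0.51.

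Promoters of 69 members, 75 windows from 250 bases before to 50 after the start, were taken from RefSeq (GRCm38.p6). Of these, 34.7% hold the letters CCGGAAG, the core bound by ETS factors such as GABP, on either strand, against 8.86% of 32851 promoters of all genes. The letters GATGGCG, the core of YY1 sites, are in 10.7% against 3.49%, and GCATGCG, the core of NRF1 sites, in 10.7% against 3.58%. The E-box CACGTG, bound by Myc and related factors, is in 9.33% against 7.15%. Its 7 windows belong to only 5 members, while for the other letters each window with a match belongs to a different member. The motifs were searched without regard to overlap with each other, and a match is a description of the letters, not of binding. Of the 69 members, 26 hold the ETS letters, 8 the YY1 letters and 8 the NRF1 letters. The called members have 10 of the 75 windows. Of the called members, 5 hold a match to the ETS, YY1 or NRF1 letters, Mrpl43 and Mrpl58 to ETS, Mrpl35 and Mrps24 to YY1 and Mrpl9 to NRF1. The matches are thus not particular to the called members. The promoter of 1 called member for each of these motifs is shown, with the matched letters in capitals, from chr6:71823735-71824034 on the minus strand for Mrpl35, chr19:45006393-45006692 on the minus strand for Mrpl43 and chr3:94443086-94443385 on the plus strand for Mrpl9.
Mrpl35: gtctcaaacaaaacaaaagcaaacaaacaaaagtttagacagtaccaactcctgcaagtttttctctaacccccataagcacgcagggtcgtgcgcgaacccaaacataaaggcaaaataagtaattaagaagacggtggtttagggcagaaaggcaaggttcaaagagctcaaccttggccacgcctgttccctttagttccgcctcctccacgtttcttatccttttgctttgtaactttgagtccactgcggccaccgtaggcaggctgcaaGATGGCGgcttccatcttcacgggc
Mrpl43: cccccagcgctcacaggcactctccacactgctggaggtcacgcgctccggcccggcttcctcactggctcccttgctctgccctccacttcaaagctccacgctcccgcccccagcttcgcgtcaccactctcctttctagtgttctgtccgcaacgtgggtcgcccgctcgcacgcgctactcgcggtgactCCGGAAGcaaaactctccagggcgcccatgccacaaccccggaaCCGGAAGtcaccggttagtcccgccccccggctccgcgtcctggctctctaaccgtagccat
Mrpl9: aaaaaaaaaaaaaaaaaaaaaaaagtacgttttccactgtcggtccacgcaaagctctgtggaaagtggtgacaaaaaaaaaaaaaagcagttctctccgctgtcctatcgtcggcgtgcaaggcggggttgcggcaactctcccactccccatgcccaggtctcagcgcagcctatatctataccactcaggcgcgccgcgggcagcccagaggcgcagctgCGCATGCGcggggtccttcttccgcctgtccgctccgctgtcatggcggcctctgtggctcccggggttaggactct
Mrpl35 holds the YY1 letters after the start, Mrpl43 holds the ETS letters at 2 places before the start, and in Mrpl9 the NRF1 letters match on both strands of the same 8 bases. Of the 5 called members with a match, Mrpl9 was higher and the others were lower in SIRT1 KO mESCs. The RNA of the genes for the factors themselves gave little change, with log2 fold changes of 0.03 for Gabpa, 0.04 for Yy1, -0.00 for Nrf1 and 0.03 for Myc, none of them called. RNA does not measure the protein or activity of a factor. The study cites its earlier work, in which c-Myc protein was more acetylated and unstable without SIRT1 and bound less to its target promoters. Mycn measured 14.64, 14.70 and 14.75 in the WT libraries against 14.31, 14.30 and 14.31 in the SIRT1 KO libraries, and fell by 0.39 (SE 0.05, limma adjusted p = 0.000465).

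Genes that act with the mitoribosome were set beside the members. Of 5 subunits with other symbols, Ptcd3 was called lower, and Dap3, Aurkaip1, Gadd45gip1 and Chchd1 were not called, with changes of 0.17, -0.08, 0.06 and -0.09. Of 26 genes for assembly of the mitoribosome and modification of its RNA, 1 was called higher and 3 lower, with a median log2 fold change of 0.06. Mterf4, which brings a methyltransferase to the large subunit RNA, fell by 0.48 (SE 0.07, limma adjusted p = 0.00147). Rbfa, a small subunit assembly factor, fell by 0.42 (SE 0.05, limma adjusted p = 0.000567), and Mtg2, a GTPase of large subunit assembly, by 0.39 (SE 0.06, limma adjusted p = 0.00103). Gtpbp6 rose by 0.35 (SE 0.06, limma adjusted p = 0.00353).

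Of 15 translation factors 2 were called higher and 1 lower, with a median of 0.04. The initiation factor gene Mtif2 rose by 0.30 (SE 0.06, limma adjusted p = 0.00497) and the ribosome recycling factor gene Gfm2 by 0.27 (SE 0.05, limma adjusted p = 0.00349), while Tufm, for the elongation factor Tu, fell by 0.25 (SE 0.06, limma adjusted p = 0.00990). The call of Tufm was lost in 9 of 14 alternatives, among them the fit with the replicate block (limma adjusted p = 0.0147), and those of Mtif2 and Gfm2 in 4 each. Of 14 tested genes for mitochondrial transcription and RNA stability 3 were called lower and none higher. Tfb2m, an initiation factor of mitochondrial transcription, measured 13.90, 13.88 and 13.93 in the WT libraries against 13.19, 13.44 and 13.31 in the SIRT1 KO libraries, and fell by 0.60 (SE 0.07, limma adjusted p = 0.000263). Tefm, its elongation factor, fell by 0.53 (SE 0.07, limma adjusted p = 0.000441). A further list held regulators of nuclear mitochondrial genes such as Nrf1 and Myc, and 1 of its 10 tested genes, Mycn, was called lower. Over all 5 lists together, 3 of 70 tested genes (4.29%) were called higher and 9 (12.9%) lower, against 8.47% and 8.12% of all tested genes. Without WT replicate 2 these counts were 3 and 13, against 10.5% and 10% of all tested genes. No gene of the lists was called higher without WT replicate 3, SIRT1 KO replicate 2 or SIRT1 KO replicate 3.

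Mitochondrial DNA encodes the mRNAs that the mitoribosome translates, its ribosomal RNAs and transfer RNAs. Of 20 tested mitochondrially encoded genes 8 (40%) were called lower and none higher, with a median log2 fold change of -0.60, against 8.12% of all tested genes called lower. Without WT replicate 2 13 were called lower, against 10% of all tested genes. All 8 are among the 13 mRNA genes, and none of the 5 tested transfer RNA genes was called. The transfer RNA genes had WT means of 4.92 to 9.18, and every mRNA gene had one of at least 11.56. mt-Co2 measured 18.51, 18.58 and 18.65 in the WT libraries against 17.79, 17.95 and 17.65 in the SIRT1 KO libraries, and fell by 0.78 (SE 0.08, limma adjusted p = 0.000127). The ribosomal RNAs of the mitoribosome, named here for that role, varied widely between libraries. mt-Rnr1, for the small subunit, measured 17.41, 19.09 and 17.05 in the WT libraries against 17.89, 16.83 and 16.21 in the SIRT1 KO libraries, with overlap. mt-Rnr2, for the large subunit, measured 20.12, 20.85 and 19.96 in the WT libraries against 20.42, 19.68 and 19.08 in the SIRT1 KO libraries, also with overlap. Neither was called, and WT replicate 2, the library lowest for the proteins, was the highest for both RNAs. Neither is particular to them, since mt-Nd4 measured 14.15, 15.77 and 14.16 in the WT libraries, and mt-Nd5 and mt-Nd2 were also highest in WT replicate 2.

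The cytosolic ribosomal proteins build the other ribosome of the cell. Of 85 tested genes 4 were called higher and 2 lower, with a median of 0.16, against -0.02 for the mitochondrial ribosomal proteins. The called genes are 4.71% and 2.35% of the list, against 8.47% and 8.12% of all tested genes. Without WT replicate 2, 7 genes of the list were called higher and 2 lower, against 10.5% and 10% of all tested genes. Their WT and SIRT1 KO values did not overlap for 43 genes (50.6%) in the higher direction and 2 (2.35%) in the lower, against 21.8% and 22.9% of all tested genes, and WT replicate 2 was the lowest WT library for 84 of them. The difference between the lists was not tested.

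**Figure D5:**
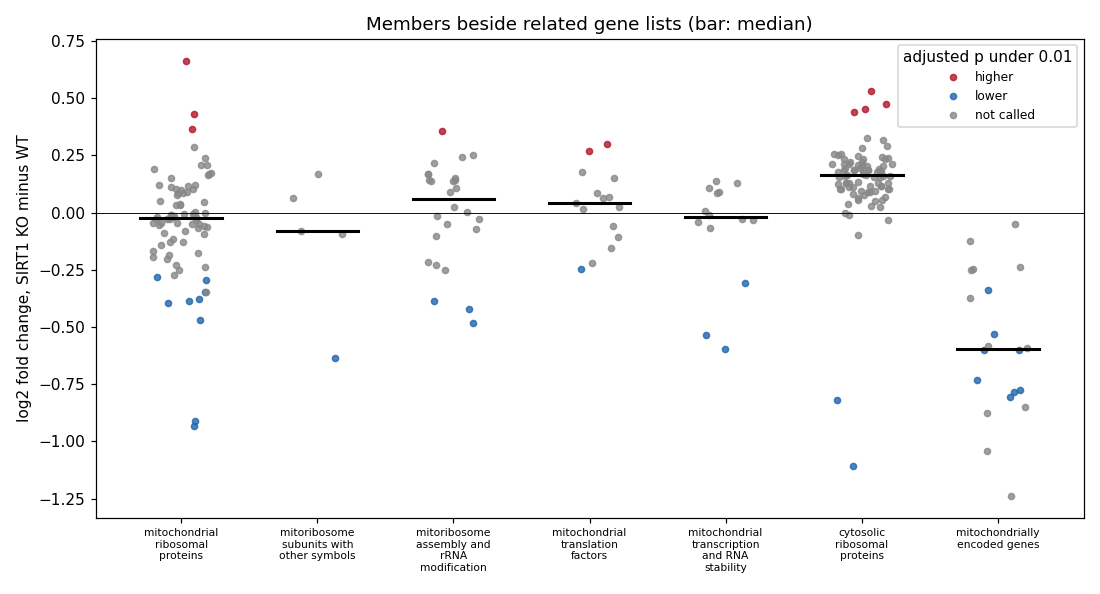
Log2 fold change, SIRT1 KO minus WT (y axis), of the mitochondrial ribosomal proteins and of related gene lists (x axis), with a point for each tested gene, coloured by its call, and a bar at the median. The members centre on -0.02, the cytosolic ribosomal proteins on 0.16 and the mitochondrially encoded genes on -0.60.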

How the data were processed

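The deposited table holds log2 normalized expression that the authors made from reads aligned to GRCm38 (mm10) with STAR, counted per gene with featureCounts and normalized with DESeq2, per the labels and methods. Which DESeq2 transformation was used, and whether counting used strand, are not given in the sources used here. The labels describe poly(A)-enriched libraries and reads of 75 bases, whereas the methods describe depletion of ribosomal RNA. No read counts entered the analysis, which leaves the depth of each value unknown and allowed no count test. No column of another sample was present.

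The genotypes were compared with limma 3.58.1 in R 4.3.3 (empirical Bayes with a mean-variance trend) over 26571 genes whose linear mean reached 10, with Benjamini-Hochberg adjustment and calls at an adjusted p under 0.01. An SD describes the libraries of 1 genotype, and an SE belongs to the fold change in limma. Positions, strands and exon lengths are from GENCODE vM21 on GRCm38, matched by symbol. Members and lists were chosen with earlier results of these data known. Named genes are the called members without overlap, those with the 4 highest and 4 lowest WT levels per exon length, those in stretches of chromosomes 6 and 8, the 3 with the smallest change, up to 4 called genes per related list, the subunits with other symbols and Sirt1; others were named after their values were seen. Deviations from the genotype means correlated at 0.24, 0.15 and 0.32 between libraries that share a replicate number, and at -0.30 to 0.08 between the others. The numbers may thus pair the libraries, although no source says what a number stands for. The fit behind the printed values uses no pairing, and a fit with a replicate block is given as an alternative. The steps were tested on simulated data.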

Additional observations from a re-analysis of the deposited data

How the results depend on the processing

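Over 15 alternatives, no call of a named gene turned its direction, and the call of Sirt1 held in each. Mrpl19, Mrpl23, Mrpl35 and Mrpl43 kept their calls in every alternative. At an adjusted p under 0.05 (limma, Benjamini-Hochberg), 5 members were higher and 16 lower, with 10 lower in the large subunit and 1 higher in the small subunit. The related lists gave 8 higher and 15 lower. The share of all tested genes called at that threshold is not given here, so these counts cannot be read against it. Centring each library on its median left 2 lower members in the small subunit. With the replicate block 3 members were higher and 8 lower, since Mrps6 lost its call, and among the related genes Tufm lost its call. No other call of these genes changed.

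Leaving out single libraries gave 1 to 3 higher and 3 to 22 lower members, 1 to 3 higher and 3 to 12 lower in the large subunit, 0 to 10 lower in the small subunit, and 0 to 3 higher related genes. The value of 22 is that without WT replicate 2. The median change of the members ranged from -0.09 to 0.02 without single libraries and was 0.03 after centring, which moved the median of all genes to 0.05, so its sign is not settled. Depth is not known from these values, and 3 libraries per genotype limit the precision.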
